A study of Homo sapiens with 6 samples.

Results

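ERK pathway feedback genes are 10 genes that growth factor signaling switches on and whose products then damp or relay that signaling: the phosphatase genes DUSP4, DUSP5 and DUSP6, the Sprouty genes SPRY1, SPRY2 and SPRY4, the Sprouty-related genes SPRED1 and SPRED2, and the ETS transcription factor genes ETV4 and ETV5. They were taken by symbol from the counts of each library, and all 10 were found among the 24462 symbols, each entered once. The data are bulk RNA-seq of 1CT, an immortalized human colonic epithelial cell line (HCEC) with wild type APC, and of 1CT-A, the same line depleted of APC, labelled as a knockdown (APC KD), with 3 libraries of each. No treatment was given to either line, and both grew in medium with 20 ng/mL EGF, 2% FBS, hydrocortisone, insulin, transferrin and sodium selenite, so all 6 libraries come from cells under constant EGF. The comparison asks which genes differ when APC is depleted. The labels name no control vector for 1CT and do not say whether the 3 libraries of a line came from separate cultures, so p-values measure the spread between these libraries, which may be technical, and APC depletion and other differences between 1 line and 1 derived line cannot be told apart.

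In this pathway EGF and other growth factors act through receptor tyrosine kinases, the adaptors SHC1 and GRB2, the exchange factor SOS, RAS, RAF and MEK to activate the ERK kinases. Active ERK induces its own inhibitors. The DUSP products remove phosphates from ERK itself, the Sprouty products act between receptor and RAF, and the SPRED products bring the RAS inactivator neurofibromin to the membrane. ETV4 and ETV5 are transcription factors of the PEA3 subfamily whose transcription rises with ERK signaling, and in the intestine the pathway works beside Wnt signaling in the control of epithelial growth.

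Between 7788679 and 8452258 reads were counted in a 1CT library and between 11158108 and 12602988 in a 1CT-A library, so that 3 counts, taken as the smallest visible level, stood for 0.355 to 0.385 CPM in a 1CT library and 0.238 to 0.269 CPM in a 1CT-A library. The unit CPM is the gene's share of all counted reads in its library, scaled alike in every library. These limits cover counting error only. APC was at 49.3, 43.8 and 46.6 CPM in 1CT and at 31.5, 30.0 and 34.4 CPM in 1CT-A, lower in all of 1CT-A (log2 fold change -0.58 with an SE of 0.09, adjusted p = 1.8e-04 by edgeR), and the reads lie near the 3′ end of the transcript. Of the epithelial markers, EPCAM and CDH1 were at or near 0 in both lines, while KRT7, JUP, KRT18 and KRT19 were counted in 1CT, at means of 23.5, 14.5, 11.2 and 3.33 CPM, and were lower in 1CT-A. EPCAM had 0 counts in every library, CDH1 had 3 to 4 counts in a 1CT library and 0 to 3 in a 1CT-A library, and the sum over 8 epithelial markers lay between 49.2 and 58.2 CPM for 1CT but between 4.75 and 11.2 CPM for 1CT-A, with 4 of the 8 tested and all 4 lower. Of these, KRT7, KRT19 and JUP passed the filter on low counts only through the 1CT libraries. Genes as low in both lines as these were in 1CT-A would not have been tested. The sum over 6 fibroblast markers, led by COL1A1, lay between 2697 and 3433 CPM for 1CT and between 2275 and 2452 CPM for 1CT-A, with 1 of the 6 higher and 3 lower. Among all genes tested, 25.0% were higher and 26.0% lower at an adjusted p under 0.05. All 6 markers of differentiated colon epithelium, among them CDX2, VIL1 and MUC2, fell below the filter on low counts. The cells are named colonic epithelial by their label, yet the fibroblast marker sum lay above the epithelial marker sum in every library. The identity of the cells was not resolved here. PTPRC of blood cells and CDH5 of endothelium were at 0 counts in every library. CD68, also listed as a blood marker, was counted throughout, with 85 to 121 reads per 1CT library and 105 to 115 per 1CT-A library. It was lower in 1CT-A (log2 fold change -0.41, edgeR adjusted p = 0.038). The 4 tested epithelial markers were all lower in 1CT-A, and the called fibroblast markers lay in both directions. The part of these marker levels in the results was not tested. In bulk libraries fewer cells of a type and less RNA per cell cannot be told apart.

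The feedback genes did not move as a group. In 1CT-A, SPRY1 rose 6.24-fold (95% confidence interval 4.11 to 9.45), SPRED2 rose 1.61-fold (1.17 to 2.22) and SPRY2 rose 1.35-fold (1.09 to 1.66), while DUSP5 fell to 0.499 of its 1CT level (0.443 to 0.561) and SPRY4 to 0.643 (0.499 to 0.827). The other 5 genes, DUSP4, DUSP6, SPRED1, ETV4 and ETV5, did not pass the test. The lines were compared by the quasi-likelihood test of edgeR over 12514 genes with Benjamini-Hochberg adjustment, and a gene was called at an adjusted p under 0.05. With 5 of 10 genes called, 3 higher and 2 lower, the feedback genes lay at the background of all genes tested, of which 51.0% were called, 25.0% higher and 26.0% lower. Their median log2 fold change was -0.08, beside -0.01 over all genes tested. The libraries of the 2 lines did not overlap for 7 of the 10 genes, against 59.7% of all genes tested. A fold of at least 2 with an unadjusted p under 0.01, the thresholds of the study's methods applied here to the edgeR fit, was met by 2 of 10, SPRY1 upward and DUSP5 downward, against 13.4% of all genes tested (3.80% higher and 9.60% lower). DUSP5 met the fold only at its edge: by the ratio of mean CPM its fold was 0.512, and with the per-gene test on log2(CPM + 1) 1 gene, SPRY1, met the thresholds. The SPRY1 gene passed the filter on low counts only through the 1CT-A libraries, and a gene as low as that in both lines would not have been tested.

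**Figure D1:**
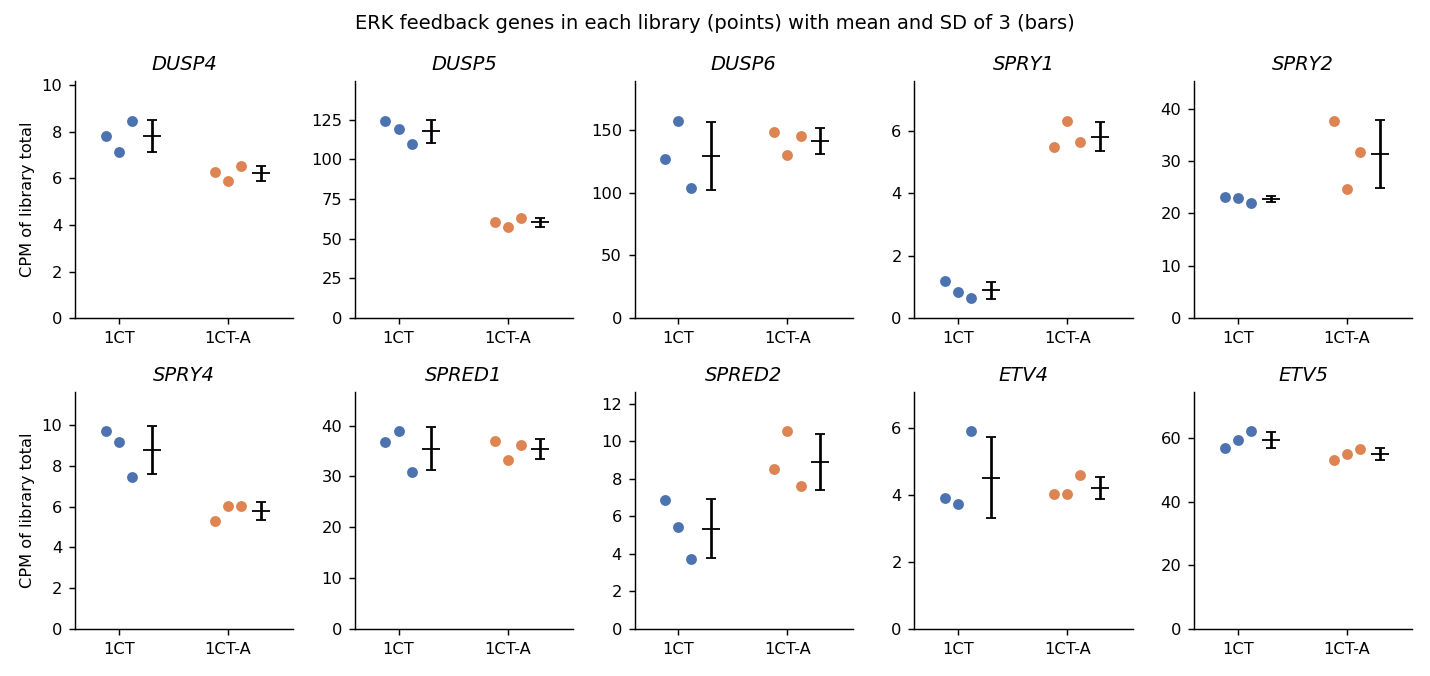
Level of each feedback gene in CPM of the library total, on linear axes from 0, in the 3 libraries of 1CT (blue points) and of 1CT-A (orange points), with the mean and SD of the 3 as black bars. DUSP5 sits between 110 and 124 CPM in 1CT and between 57.5 and 62.9 CPM in 1CT-A, SPRY1 is at most 1.18 CPM in 1CT and at least 5.47 CPM in 1CT-A, and the points of DUSP6, SPRED1 and ETV4 overlap.

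**Figure D2:**
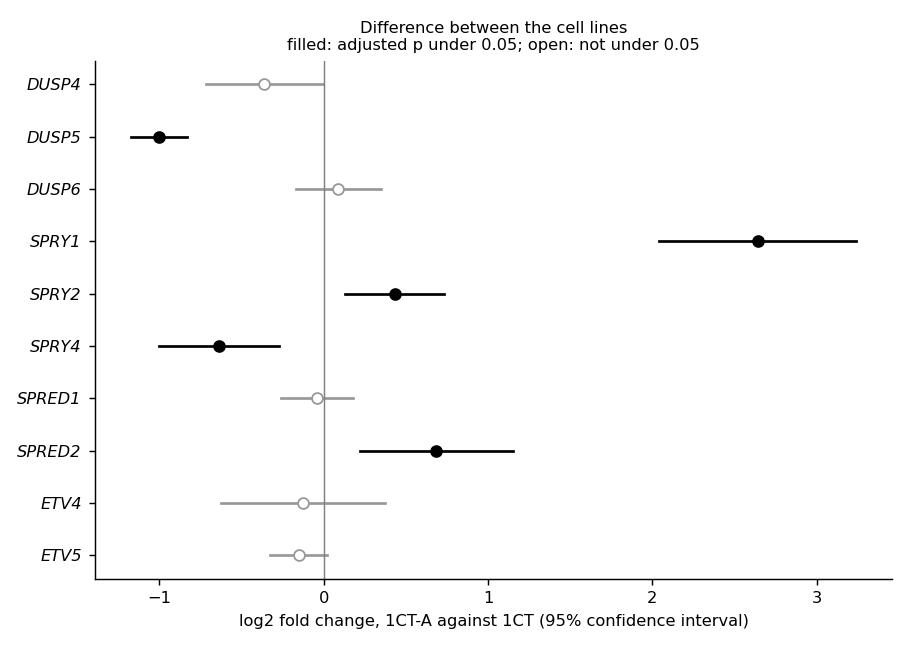
Change of each feedback gene from 1CT to 1CT-A as log2 fold change (points) with its 95% confidence interval (lines), from the fit over all genes. Filled points mark an adjusted p under 0.05. SPRY1 lies farthest to the right at 2.64, DUSP5 farthest to the left at -1.0, and the intervals of DUSP6, SPRED1, ETV4 and ETV5 include 0.

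The DUSP genes encode dual specificity phosphatases, which take phosphate from both the threonine and the tyrosine of the ERK activation loop. DUSP5 and DUSP4 products are nuclear, and the DUSP6 product is cytoplasmic and prefers ERK over other MAP kinases. In GENCODE release 44 on GRCh38, DUSP5 is at chr10:110497907-110511533 (plus strand), DUSP6 at chr12:89347235-89352501 (minus strand) and DUSP4 on the minus strand of chromosome 8. A long noncoding RNA gene, ENSG00000274021, overlaps DUSP6 on the other strand, and reads of both may not be told apart. The count files carry no coordinates, so these positions describe the annotation and not the counting.

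DUSP5 was at 124, 119 and 110 CPM in the 1CT libraries and at 60.3, 57.5 and 62.9 CPM in the 1CT-A libraries. Every 1CT-A library lay far below every 1CT library, with means of 118 ± 7.36 CPM (SD, n = 3) and 60.2 ± 2.72 CPM. On the log2 scale the fold change was -1.0 with an SE of 0.08 (adjusted p = 4.25e-07, edgeR), and 10.1% of all genes tested fell further. Leaving out any 1 library kept it between -1.03 and -0.96.

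DUSP6 was at 127, 157 and 104 CPM in 1CT and at 149, 130 and 145 CPM in 1CT-A. The 1CT libraries enclosed the 1CT-A values, and the SD was 20.9% of the mean in 1CT and 7.14% in 1CT-A. The log2 fold change of 0.09 (SE 0.12, adjusted p = 0.554, edgeR) had an interval from -0.17 to 0.35, so a change of DUSP6 beyond 1.27-fold upward or 0.891 of the 1CT level downward lay outside it. Without 1CT replicate 3, the lowest library, it was -0.03.

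DUSP4 was at 7.81, 7.12 and 8.47 CPM in 1CT and at 6.27, 5.88 and 6.51 CPM in 1CT-A. The lines did not overlap and 1CT-A was lower in every library, but the log2 fold change of -0.36 (SE 0.16) had an edgeR adjusted p of 0.0826 and did not pass the test. At 59 to 82 counts per library the precision for DUSP4 was lower than for the other phosphatase genes. Taken within each library, which removes any scaling between libraries, DUSP5 made up 46.5% ± 4.00 (SD, n = 3) of the counts on the 3 phosphatase genes in 1CT and 29.0% ± 0.91 in 1CT-A. DUSP6 made up 50.4% ± 4.60 and 68.0% ± 0.98. The shares of DUSP5 and of DUSP6 did not overlap between the lines, and those of DUSP4, 3.12% and 3.0%, did. Since the shares sum to 100%, the higher share of DUSP6 restates the fall of DUSP5, and DUSP6 itself did not pass the test. Shares of counts are compared here between lines and do not rank the transcripts of different genes.

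Among the close relatives, DUSP1, an immediate early phosphatase gene whose product acts on several MAP kinases, moved down like DUSP5, from 131 ± 20.8 to 70.0 ± 9.43 CPM (SD, n = 3), or -0.94 as log2 fold change with an SE of 0.12 (adjusted p = 2.27e-05, edgeR). DUSP7, the gene of a cytoplasmic phosphatase close to that of DUSP6, rose from 19.2 ± 0.86 to 26.2 ± 1.44 CPM (log2 fold change 0.40, SE 0.10, edgeR adjusted p = 0.00523). DUSP16, which acts on JNK and p38, rose from 4.10 ± 0.86 to 7.39 ± 0.62 CPM (log2 fold change 0.81, edgeR adjusted p = 0.0045). DUSP10 did not pass the test, and DUSP2, DUSP8 and DUSP9 were too low to be tested, at mean levels of 0.14 to 1.31 CPM. Called phosphatase genes therefore lay in both directions.

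Upstream sequence was looked up for the feedback genes in RefSeq windows on GRCh38.p14, and 6 of the 10 genes matched, with 10 windows in all since some genes have several starts. DUSP4, DUSP5, ETV4 and ETV5 had no entry. The 250 bases before each start were searched on both strands for GGAAGT (an ETS site), TGACTCA (an AP-1 site), TGAATGA and TGAATGG (sites of CIC, the repressor that ERK signaling releases from ETV genes) and CTTTGAT (a TCF/LEF site, for the factors that bind β-catenin). A CIC match was found in 1 of the 10 windows, that of DUSP6, and an ETS match in 1, at an inner start of SPRY2. No AP-1 or TCF/LEF letters were found. Over all 35116 windows of the table, 5.75% held at least 1 of the CIC forms, 19.5% the ETS form, 4.20% the AP-1 form and 2.26% the TCF/LEF form. Among the 6 feedback genes that could be searched, only DUSP6 had a CIC match. The upstream sequence of DUSP6 is shown with the CIC match in capitals, as chr12:89352502-89352751 on the minus strand, 5′ to 3′.
DUSP6: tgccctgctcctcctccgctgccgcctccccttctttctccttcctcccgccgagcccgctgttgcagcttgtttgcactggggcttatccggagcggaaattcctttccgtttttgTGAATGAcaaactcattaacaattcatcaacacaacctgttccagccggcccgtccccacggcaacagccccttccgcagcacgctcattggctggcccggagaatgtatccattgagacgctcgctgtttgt

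The Sprouty genes encode membrane-associated inhibitors that receptor signaling phosphorylates on a tyrosine and that then hold back RAS and RAF activation. The annotation places SPRY1 at chr4:123396795-123403760 (plus strand), SPRY2 at chr13:80335976-80341126 (minus strand) and SPRY4 at chr5:142310427-142326455 (minus strand), where SPRY4-AS1 lies on the other strand (GENCODE release 44, GRCh38). The strand setting of the counting is not given in the sources used here, and reads of SPRY4 and SPRY4-AS1 may not be told apart. The sequences before the outermost starts of the 2 Sprouty genes that rose are shown together, since both moved up, as chr4:123396545-123396794 on the plus strand for SPRY1 and chr13:80341127-80341376 on the minus strand for SPRY2, 5′ to 3′. None of the searched motifs is in either sequence, so no letters are in capitals, and the GC content is 45.6% for SPRY1 and 70.4% for SPRY2.
SPRY1: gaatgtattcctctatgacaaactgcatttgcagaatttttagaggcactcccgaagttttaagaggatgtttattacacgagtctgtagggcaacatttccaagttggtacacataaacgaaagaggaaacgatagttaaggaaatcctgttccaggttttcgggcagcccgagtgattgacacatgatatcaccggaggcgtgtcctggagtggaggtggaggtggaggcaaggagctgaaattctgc
SPRY2: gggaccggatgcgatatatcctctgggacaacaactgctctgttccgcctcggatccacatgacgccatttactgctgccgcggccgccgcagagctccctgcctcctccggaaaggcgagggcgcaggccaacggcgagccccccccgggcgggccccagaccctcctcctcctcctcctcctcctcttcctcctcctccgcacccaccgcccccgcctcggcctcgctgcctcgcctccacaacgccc

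SPRY1 reads numbered 10, 7 and 5 in 1CT against 61, 72 and 71 in 1CT-A. In CPM this was 1.18, 0.85 and 0.64 against 5.47, 6.32 and 5.63, so that all 1CT libraries were close to the visible limit and all 1CT-A libraries well above it. A log2 fold change of 2.64, SE 0.28 (adjusted p = 5.36e-06, edgeR), was exceeded by 0.40% of all genes tested. It ran from 2.48 to 2.90 when 1 library was left out.

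SPRY2 was at 23.1, 22.9 and 22.1 CPM in 1CT and at 37.7, 24.8 and 31.8 CPM in 1CT-A. The 1CT libraries were tight, with an SD of 2.36% of the mean, and the 1CT-A libraries spread from just above them upward, with an SD of 20.7%. The log2 fold change was 0.43 (SE 0.14, adjusted p = 0.0207, edgeR). The call was lost without 1CT-A replicate 1, where the log2 fold change dropped to 0.28 (edgeR adjusted p = 0.107). It was also lost without 1CT-A replicate 3 (edgeR adjusted p = 0.0536), where the log2 fold change stayed at 0.43 and the SE was 0.17. Without 1CT-A replicate 2 the log2 fold change was 0.58.

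SPRY4 moved the other way, from 9.70, 9.18 and 7.45 CPM in 1CT to 5.29, 6.06 and 6.03 CPM in 1CT-A. All 1CT-A libraries were below all 1CT libraries. Its log2 fold change was -0.64 (SE 0.17, adjusted p = 0.00661, edgeR), and leaving out 1 library gave values from -0.73 to -0.56. Within a library, SPRY4 fell from 27.0% ± 2.07 to 13.7% ± 2.71 (SD, n = 3) of the counts on the 3 Sprouty genes, and SPRY1 went from 2.73% ± 0.69 to 13.8% ± 2.95, without overlap for either. The share of SPRY2 overlapped between the lines, at 70.2% ± 2.68 and 72.6% ± 5.60. The remaining Sprouty gene, SPRY3, was at 0.74 ± 0.25 CPM in 1CT and 0.26 ± 0.16 CPM in 1CT-A and was too low to be tested.

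**Figure D3:**
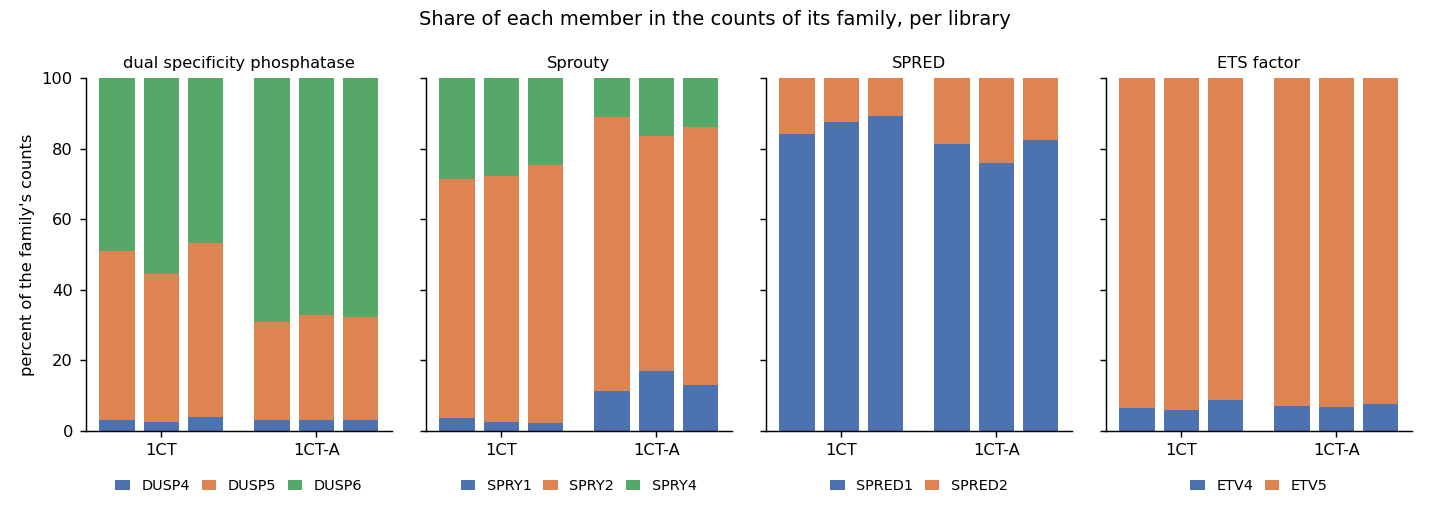
Percent of a family's counts taken by each gene (stacked colours) in each of the 3 libraries of 1CT and of 1CT-A, for the DUSP, Sprouty, SPRED and ETS genes. The DUSP5 share drops from between 41.9% and 49.5% to between 28.0% and 29.8%, the SPRY4 share drops while the SPRY1 share grows, and the ETV4 and ETV5 shares overlap between the lines.

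The SPRED genes encode Sprouty-related proteins with an EVH1 domain that binds neurofibromin, the product of NF1. SPRED1 is at chr15:38252836-38357249 (plus strand) and SPRED2 at chr2:65310851-65432637 (minus strand) (GENCODE release 44, GRCh38). A long noncoding RNA gene, ENSG00000232693, overlaps SPRED2 on the same strand, and reads of both may have been counted together. SPRED1 was at 36.7, 38.9 and 30.8 CPM in 1CT and at 36.9, 33.2 and 36.2 CPM in 1CT-A. The lines overlapped, with means of 35.5 ± 4.17 and 35.4 ± 1.98 CPM (SD, n = 3), and the log2 fold change was -0.04 (SE 0.10, adjusted p = 0.763, edgeR) with an interval from -0.26 to 0.18. Its sign changed without 1CT replicate 2, at 0.03, and without 1CT-A replicate 2, at 0.01.

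SPRED2 was at 6.86, 5.43 and 3.72 CPM in 1CT and at 8.51, 10.5 and 7.62 CPM in 1CT-A. Every 1CT-A library was above every 1CT library, though 1CT replicate 1 and 1CT-A replicate 3 were close. The log2 fold change was 0.69 (SE 0.22, adjusted p = 0.0173, edgeR), and 9.49% of all genes tested rose further. Without 1CT-A replicate 2, the highest library, it was 0.56 with an edgeR adjusted p of 0.0797. SPRED2 took 12.9% ± 2.56 (SD, n = 3) of the counts on both SPRED genes in 1CT and 20.1% ± 3.55 in 1CT-A, without overlap. SPRED3, the third gene of the family, fell from 5.27 ± 0.48 to 1.72 ± 0.40 CPM (log2 fold change -1.65, SE 0.25, edgeR adjusted p = 1.27e-04), so the SPRED genes held 1 that rose, 1 that fell and 1 that did not pass the test. NF1 was at 29.3 ± 2.21 CPM in 1CT and 27.4 ± 2.22 CPM in 1CT-A and did not pass the test (log2 fold change -0.13, edgeR adjusted p = 0.29).

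ETV4 and ETV5 are activators that bind GGAA sites, and both are commonly read as markers of ERK output. ETV4 is at chr17:43527844-43579620 (minus strand), where DHX8 lies on the other strand, and ETV5 at chr3:186046314-186110318 (minus strand), where DGKG lies on the same strand and ETV5-AS1 on the other (GENCODE release 44, GRCh38). Reads of these overlapping genes may have been counted together. ETV4 was at 3.90, 3.74 and 5.91 CPM in 1CT and at 4.03, 4.04 and 4.60 CPM in 1CT-A. The 1CT-A values lay within the range of 1CT, and only 31 to 58 reads per library were counted. The log2 fold change of -0.13 (SE 0.23, adjusted p = 0.669, edgeR) turned to 0.12 without 1CT replicate 3, the highest library, and its interval ran from -0.63 to 0.37.

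ETV5 was at 57.0, 59.4 and 62.3 CPM in 1CT and at 53.1, 55.2 and 56.8 CPM in 1CT-A. The 1CT-A libraries were all below the 1CT libraries, by a small margin. The log2 fold change of -0.15 (SE 0.08, adjusted p = 0.133, edgeR) did not pass the test, and its interval ran from -0.33 to 0.02. ETV5 took 93.0% ± 1.46 (SD, n = 3) of the counts on both ETS genes in 1CT and 92.9% ± 0.34 in 1CT-A. ETV1, the remaining gene of the subfamily, was at 6.81 ± 1.64 and 9.69 ± 1.32 CPM and did not pass the test (log2 fold change 0.46, edgeR adjusted p = 0.0575).

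Of 5 genes known for the control of these factors, CIC, the repressor of ETV genes, was at 21.5 ± 2.98 CPM in 1CT and 19.8 ± 1.15 CPM in 1CT-A (log2 fold change -0.15, edgeR adjusted p = 0.323). ATXN1, a partner of CIC, fell from 10.6 ± 2.16 to 4.27 ± 0.70 CPM (log2 fold change -1.34, SE 0.20, edgeR adjusted p = 9.9e-05). COP1, listed in the files under its older symbol RFWD2 and known as part of a ubiquitin ligase for ETV proteins, rose from 22.4 ± 2.61 to 29.4 ± 1.36 CPM (log2 fold change 0.35, SE 0.11, edgeR adjusted p = 0.0138). ATXN1L and DET1 did not pass the test. A share of 2 in 5 called stands beside 51.0% of all genes tested. Without 1CT-A replicate 3, COP1 lost its call and 1 gene of the 5 was called in place of 2.

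**Figure D4:**
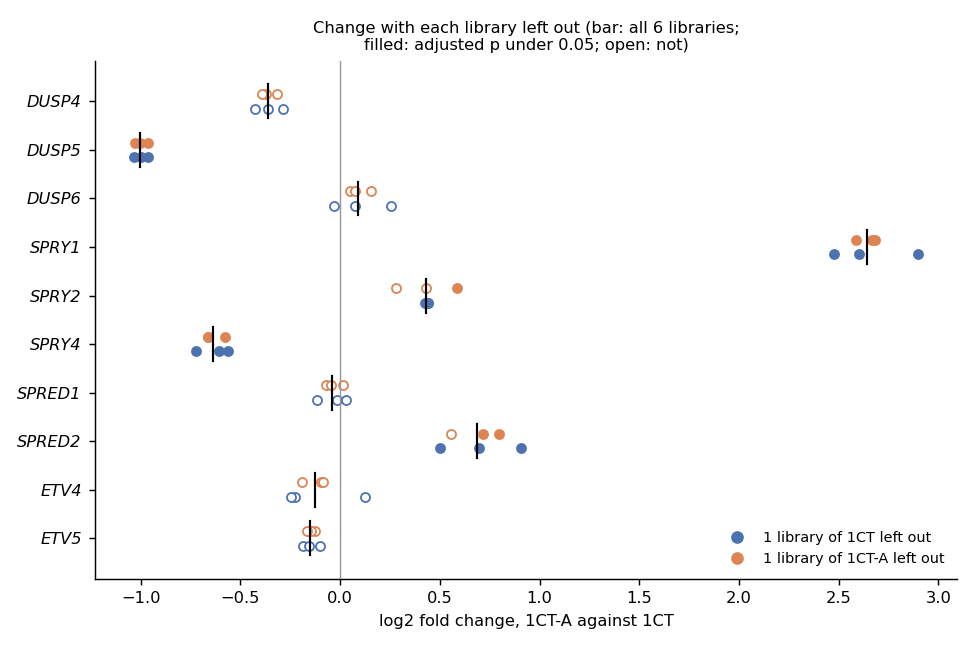
Log2 fold change of each feedback gene with 1 library omitted at a time, 3 fits without a 1CT library (blue) and 3 without a 1CT-A library (orange), beside the value from all 6 libraries (black bar). Filled points have an adjusted p under 0.05. DUSP5, SPRY1 and SPRY4 keep theirs in all 6 fits, SPRY2 and SPRED2 have open points, and DUSP6, SPRED1 and ETV4 cross 0.

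The kinase cascade that feeds these genes held few genes that passed the test. Of 21 genes from receptor to ERK and its kinase targets, 20 were tested, 1 was higher, 4 were lower and 15 did not pass the test, with a median log2 fold change of -0.01. NRAS rose from 138 ± 32.8 to 228 ± 20.1 CPM (log2 fold change 0.69, SE 0.13, edgeR adjusted p = 7.64e-04). The adaptor gene SHC1 fell from 229 ± 14.0 to 129 ± 2.03 CPM (log2 fold change -0.88, edgeR adjusted p = 6.75e-07), MAPK3, which encodes ERK1, from 118 ± 12 to 70.7 ± 1.80 CPM (-0.78, edgeR adjusted p = 1.03e-05), and MAP2K2, which encodes a MEK, from 359 ± 38.8 to 251 ± 3.44 CPM (-0.55, edgeR adjusted p = 9.9e-05). The fourth lower gene was EGFR, at 23.7 ± 1.68 and 17.0 ± 0.51 CPM (-0.52, edgeR adjusted p = 0.00165), named after its values were seen. MAP2K1, which encodes the other MEK (log2 fold change 0.21), and HRAS (-0.01), likewise named after their values were seen, did not pass the test. Without any 1 of the 1CT libraries 2 cascade genes were higher, and 3 were with scaling by library size only. A share of 5 in 20 called lies below the 51.0% of all genes tested.

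Of 11 other negative regulators of the pathway, all were tested, 1 was higher, 2 were lower and 8 did not pass the test, a share of 3 in 11 called beside 51.0% of all genes tested. PEA15, which holds ERK in the cytoplasm, fell from 280 ± 26.4 to 155 ± 11.4 CPM (log2 fold change -0.89, SE 0.09, edgeR adjusted p = 3.0e-06). PEBP1, an inhibitor of RAF, rose slightly, from 875 ± 26.4 to 1018 ± 43.7 CPM (0.18, edgeR adjusted p = 0.0291). The call of PEBP1 was lost without 1CT replicate 2, 1CT-A replicate 1 or 1CT-A replicate 3 and under the replicate block, which left 0 genes of this list higher. IL17RD, another feedback inhibitor of growth factor receptors, had 17, 16 and 15 counts in 1CT and 2, 3 and 5 counts in 1CT-A (edgeR adjusted p = 1.0e-04), so its 1CT-A level is near the visible limit and it could not be fitted with at least 10 counts in every library. IL17RD passed the filter on low counts only through the 1CT libraries, and a gene as low as in 1CT-A in both lines would not have been tested. ERRFI1, the EGF receptor inhibitor, was at 64.5 ± 7.95 and 62.0 ± 2.71 CPM and did not pass the test.

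Other genes that ERK signaling induces were called in both directions. All 18 of the list were tested, 8 were higher, 5 were lower and 5 did not pass the test, a share of 13 in 18 beside 51.0% of all genes, with a median log2 fold change of 0.01. CCND1, the cyclin D1 gene, fell from 1258 ± 145 to 333 ± 16.1 CPM (log2 fold change -1.96, SE 0.09, edgeR adjusted p = 2.62e-09). PHLDA1 rose from 493 ± 30.4 to 847 ± 7.96 CPM (0.74, edgeR adjusted p = 9.11e-07), MYC from 7.20 ± 2.13 to 18.1 ± 3.04 CPM (1.29, edgeR adjusted p = 1.19e-04), and ZFP36, an mRNA decay factor gene, from 8.13 ± 5.28 to 17.2 ± 2.75 CPM (1.03, edgeR adjusted p = 0.0162). Among the EGF receptor ligands of the list, named after their values were seen, EREG went from 3, 10 and 3 counts in 1CT to 103, 133 and 157 counts in 1CT-A (edgeR adjusted p = 4.52e-07), having passed the filter on low counts only through 1CT-A as SPRY1 did, while HBEGF fell from 12.5 ± 0.39 to 2.33 ± 0.69 CPM (log2 fold change -2.45, edgeR adjusted p = 6.58e-07) and AREG from 8.41 ± 1.48 to 1.91 ± 0.49 CPM (-2.16, edgeR adjusted p = 8.23e-06). FOS, higher in 1CT-A and also named after its values were seen, had 8, 8 and 1 counts in 1CT and 19, 20 and 26 in 1CT-A. It too passed the filter on low counts only through 1CT-A. With at least 10 counts in every library, 16 genes of the list were tested, 6 were higher and 11 were called. Without 1CT-A replicate 2, 5 genes of the list were higher in place of 8, and 9 were called in place of 13. EPHA2, EPHA4, FOSL1, LIF and PLAUR did not pass the test. Results for CCND1 and MYC were known when the list was written, so the list is not independent evidence of any direction.

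**Figure D5:**
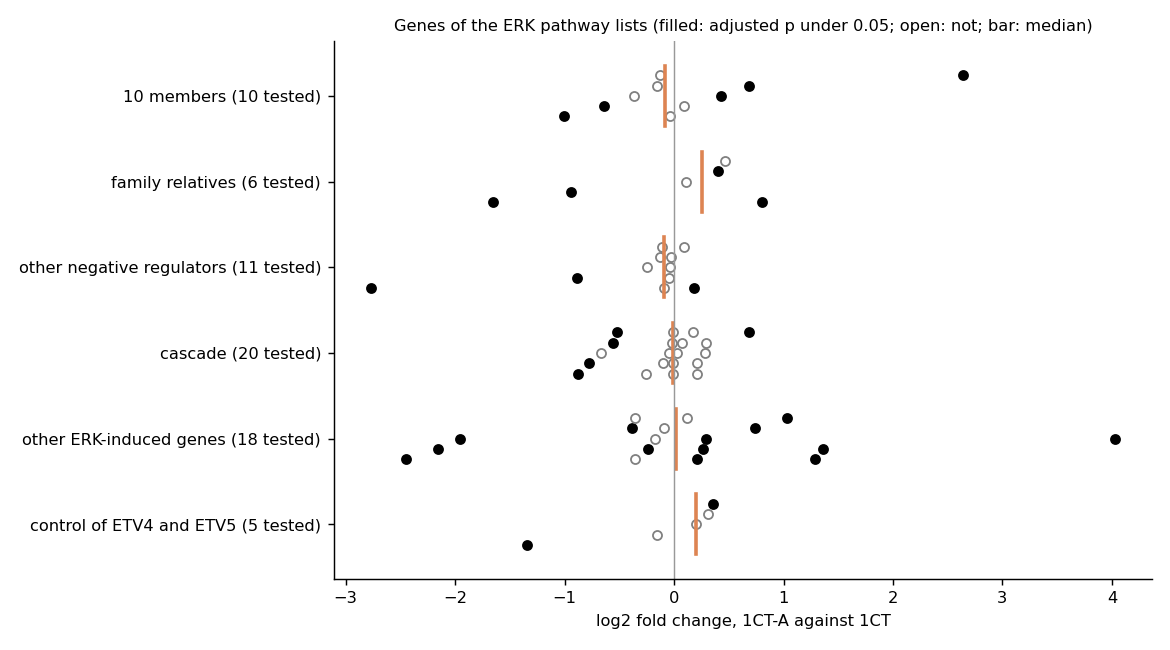
Change from 1CT to 1CT-A, as log2 fold change, of each tested gene of the ERK pathway lists, with filled points for an adjusted p under 0.05, open points for the others and an orange bar for the median of the list. The 10 feedback genes spread to both sides around a median of -0.08, most of the 20 cascade genes lie near 0, and the 18 other ERK-induced genes reach from -2.45 to 4.03.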

How the data were processed

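Bulk RNA-seq was measured in 3 libraries of 1CT and 3 of 1CT-A. The authors deposited raw counts, whole numbers of reads per gene symbol without normalization, from QuantSeq 3′ libraries made from 500 ng of total RNA. The submitters' processing notes name hg19, Bowtie2 and edgeR without roles, and the counting tool, annotation and strand setting are not given in the sources used here. Counts of repeated symbols (286 of 24462) were summed. Levels are CPM of each library's total. Differences were fitted with edgeR 4.0.16 in R 4.3.3: TMM factors (0.975 to 1.02), filterByExpr (minimum count 10), quasi-likelihood testing and Benjamini-Hochberg adjustment over 12514 genes. The pipeline was tested on simulated data. With 3 libraries a line, two-sided exact permutation p-values have a minimum of 0.1. The study's methods name a two-tailed per-gene test, here an alternative on log2(CPM + 1). Replicates differed by more than counting noise (chi-square per degree of freedom 3.0 to 8.42, highest for pairs with 1CT replicate 3). The feedback genes and lists were chosen with earlier results of these data known. Named were all 10 feedback genes, APC and, per list, up to 4 called genes with the largest change and a mean of at least 10 CPM, plus genes of the smaller lists by level. DESeq2 1.42.0 and limma 3.58.1 were alternatives. RefSeq protein sequences were not used here. Some genes of the cascade list are not reported here by name.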

Additional observations from a re-analysis of the deposited data

How the results depend on the processing

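DUSP5, SPRY1 and SPRY4 stayed called in every alternative that could fit them: another scaling (DESeq2's size factors or library size alone), another filter (none, or a minimum of 10 counts in each library), DESeq2, limma-voom, the replicate block and each library left out. SPRY1 could not be fitted with at least 10 counts in every library. At an adjusted p under 0.01, 3 feedback genes were called, 1 of them higher. So were 8 of the other ERK-induced genes and 1 of the genes controlling ETV4 and ETV5. Of the 12514 genes tested, 4671 were called at that threshold, 2223 higher and 2448 lower. With each library left out, log2 fold changes ran from 0.28 to 0.58 for SPRY2, from 0.50 to 0.91 for SPRED2, from -0.030 (without 1CT replicate 3) to 0.26 for DUSP6, from -0.11 to 0.030 for SPRED1 (positive also without 1CT-A replicate 2, at 0.014) and from -0.25 to 0.12 for ETV4, and 1 to 2 genes controlling ETV4 and ETV5 were called. SPRY2 lost its call without 1CT-A replicate 1 or 3 and SPRED2 without 1CT-A replicate 2, where fewer libraries entered. SPRED1 turned to 0.0058 without a filter. In that setting the log2 fold changes of genes shared with the main fit lay higher by a median of 0.046, and the cause was not tested. The study's per-gene test left 1 feedback gene, SPRY1, at its thresholds in place of 2, without DUSP5. The replicate numbers showed no sign of pairing: deviations of same-numbered libraries correlated from -0.16 to 0.22 over 8224 genes, and those of different-numbered libraries from -0.29 to 0.34. With 3 libraries a line this check cannot exclude pairing. With the replicate block, 6091 genes were called in place of 6388, and the same 5 feedback genes. ETV4, DUSP4, SPRY1 and SPRY4 had under 100 counts per library.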
